A study of Homo sapiens with 6 samples.

Results

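The CCAAT/enhancer-binding protein (C/EBP) family was followed across 4 histone mark peak lists of HL-60 cells. Its members were taken by gene symbol, and all 5 (CEBPA, CEBPB, CEBPD, CEBPE and CEBPG) were found among the 18086 symbols named in any of the lists. HL-60 is a human promyelocytic leukaemia line that can be driven towards granulocytes, and the labels class it as a myeloblast. H3K4me3 and H3K27me3 were each mapped by ChIP-seq in cells knocked out for JMJD3 and in parental cells, both grown in DMEM with serum and no stated treatment. JMJD3 is the product of KDM6B and erases methylation at H3K27. Each combination of genotype and mark had 1 library, so differences were not checked against replicates, no p-value is given, and the order of neighbouring values cannot be set against a spread. The labels do not say whether the knockout cells are a single clone. The antibody label of the H3K27me3 libraries names H3K4me3, so their mark was read from the title.

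C/EBP proteins carry a C-terminal basic region and leucine zipper, bind DNA as homodimers or heterodimers, and recognise CCAAT-related palindromes. In the myeloid lineage they act in sequence: C/EBPα is needed for the step to granulocyte and monocyte progenitors, C/EBPε for late granulocyte maturation and secondary granule genes, and C/EBPβ for granulocyte production under stress and for macrophage genes. C/EBPδ is an acute phase and inflammation factor, and C/EBPγ lacks an activation domain and forms dimers with other members and with ATF4. H3K4me3 marks active or poised promoters, and H3K27me3 is the mark of Polycomb repression.

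The knockout H3K4me3 list held 24943 peaks covering 8.29 Mb and the parental list 33470 peaks covering 17.5 Mb. The H3K27me3 lists held 3234 peaks in knockout and 3578 in parental cells. The lists hold positions without read counts or heights, which leaves the depth unknown, and how far depth or library quality moved with the widths below was not tested. The targeted gene KDM6B had 710 bp of promoter H3K4me3 in knockout and 3041 bp in parental cells. It was narrower by at least 2-fold, as were 50.6% of genes with promoter H3K4me3 in both genotypes. These widths do not show whether its coding sequence was disrupted. Of 10 markers chosen for HL-60, 8 had promoter H3K4me3 in both genotypes, against 61.9% of all genes; the 8 include CEBPA and CEBPE themselves, and ELANE and AZU1 were the exceptions. The liver marker ALB had no promoter H3K4me3 in either genotype, and had 1792 bp of promoter H3K27me3 in knockout cells and none in parental cells.

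The 250 bases before the start sites of 4 members are shown because the results turn on how the mark lay around them. They are RefSeq sequence of GRCh38.p14, whereas the peaks are in hg19, so start sites may differ between the builds and no peak was placed on these letters. Capitals mark matches, on either strand, to the letters of 5 short motifs. TATAAA was searched as the TATA box and GGGCGG as the GC box. CCAAT was searched as the CCAAT box. GCAAT was searched as an arm of the C/EBP palindrome, not as the whole site. The E-box was searched as CACGTG. CEBPD is named only.
CEBPA, minus strand, chr19:33302535-33302784: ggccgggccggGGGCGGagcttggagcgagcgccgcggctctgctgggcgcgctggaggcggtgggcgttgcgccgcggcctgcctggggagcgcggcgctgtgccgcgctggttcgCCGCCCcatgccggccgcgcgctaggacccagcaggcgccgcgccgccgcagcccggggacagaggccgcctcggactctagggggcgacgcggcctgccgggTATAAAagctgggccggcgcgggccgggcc
CEBPE, minus strand, chr14:23119256-23119505: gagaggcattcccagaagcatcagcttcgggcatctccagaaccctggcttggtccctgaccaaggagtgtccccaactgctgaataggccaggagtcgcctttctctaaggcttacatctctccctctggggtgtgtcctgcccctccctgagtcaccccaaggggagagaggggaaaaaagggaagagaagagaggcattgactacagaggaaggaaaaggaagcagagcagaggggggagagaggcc
CEBPB, plus strand, chr20:50190333-50190582: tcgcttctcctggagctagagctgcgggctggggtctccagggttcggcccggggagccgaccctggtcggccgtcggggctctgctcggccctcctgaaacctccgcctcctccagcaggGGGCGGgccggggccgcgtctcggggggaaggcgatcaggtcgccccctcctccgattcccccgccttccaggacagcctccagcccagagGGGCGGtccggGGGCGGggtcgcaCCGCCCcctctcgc
CEBPG, plus strand, chr19:33373459-33373708: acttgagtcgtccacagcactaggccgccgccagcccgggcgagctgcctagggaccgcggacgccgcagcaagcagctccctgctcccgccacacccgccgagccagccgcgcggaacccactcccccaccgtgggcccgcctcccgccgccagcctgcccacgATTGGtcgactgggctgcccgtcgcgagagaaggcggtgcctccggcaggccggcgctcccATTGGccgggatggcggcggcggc

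The 4 promoters differed in base composition. CEBPA held 41 CpG dinucleotides, CEBPG 32 and CEBPB 25, against a median of 11 over 35116 RefSeq windows of the same length. CEBPE held 2, and 14.7% of all windows held fewer. CEBPA had the TATAAA match, at position -30, and 2 GC boxes; TATAAA occurs in 10.7% of all windows. CEBPB had 4 GC box matches, at positions -129, -38, -27 and -14, and the GC box occurs in 42.6% of windows. CEBPG had 2 CCAAT matches read on the other strand, at -85 and -24, and CCAAT occurs in 32.0% of windows. CEBPE had none of the 5 motifs. GCAAT and CACGTG, present in 21.3% and 6.34% of windows, were not matched in any of the 4.

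All 5 genes carried H3K4me3 at the promoter in both genotypes, and none had an H3K27me3 peak within 20 kb in either. A gene was counted as marked when a peak centre lay at most 5 kb from a transcript start site, or when a peak spanned that site. Among all listed genes, 62.9% were marked with H3K4me3 in knockout cells, 71.3% in parental cells and 61.9% in both. The nearest listed H3K27me3 peak lay 237 kb from CEBPG, 308 kb from CEBPA, 499 kb from CEBPE, 635 kb from CEBPB and 1350 kb from CEBPD in knockout cells. In parental cells these distances were 236, 307, 2980, 632 and 4690 kb. The lists hold only peaks within 20 kb of a transcript start site, so an unlisted peak may lie nearer than these distances. Peak numbers in the H3K27me3 lists ran to 15618 in knockout and 17383 in parental cells, against 3234 and 3578 peaks listed. An H3K27me3 peak within 20 kb in either genotype was listed for 18.2% of all genes, and 95.5% of the genes with promoter H3K4me3 in both genotypes had none.

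Around the 5 genes the lists held equal numbers of H3K4me3 peaks, 20 in knockout and 20 in parental cells. These were not the same intervals. Each of the 20 knockout peaks overlapped a parental peak by at least 1 bp (100%, Wilson 95% interval 83.9 to 100; 88.7% of the whole knockout list), whereas 10 of the 20 parental peaks overlapped a knockout peak (50%, 29.9 to 70.1; 52.6% of the whole parental list). The intervals reflect counting error alone and take the peaks as independent. Peaks of 1 gene share a region, so the intervals may be too narrow. The 10 parental peaks without a counterpart were between 165 and 442 bp wide, and the widest of them lay at CEBPE.

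**Figure D1:**
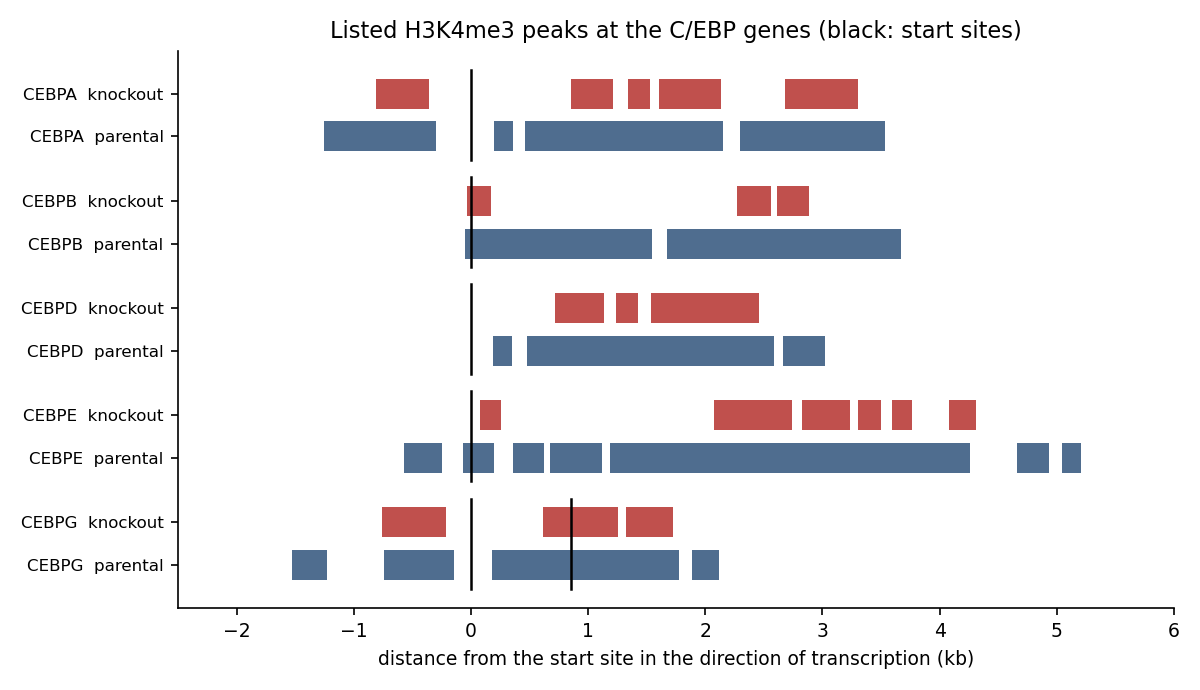
Listed H3K4me3 peaks (bars) of the 5 genes in knockout (red) and parental cells (blue), by distance from the start site in the direction of transcription in kb; black lines are start sites, of which CEBPG has 2. Each knockout bar falls on a parental bar, and the knockout rows of CEBPB and CEBPE have wide empty stretches where the parental rows are filled.

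The mark lay mostly on the transcribed side of the start site, which was not set against the layout at all genes. Downstream of the start site CEBPB had 738 bp of H3K4me3 in knockout and 3549 bp in parental cells, and upstream 32 and 56 bp. CEBPD had no listed base upstream within 5 kb in either genotype. CEBPE had 0 bp upstream in knockout and 401 bp in parental cells. CEBPA had an upstream block in both genotypes, of 453 bp in knockout and 954 bp in parental cells, over the first part of the divergent transcript CEBPA-AS1. At CEBPG the balance depended on the start site. From that of NM_001806, 547 bp lay upstream and 1044 bp downstream in knockout cells, against 903 and 1825 bp in parental cells. From that of NM_001252296, the values were 789 and 802 bp in knockout and 1576 and 1152 bp in parental cells.

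A peak spanned an annotated start site at CEBPB and CEBPG in knockout cells, and at CEBPB, CEBPE and CEBPG in parental cells. Among all genes with promoter H3K4me3, 9.86% had a spanned start site in knockout and 24.1% in parental cells, and 7.72% of those marked in both lists had one in both genotypes, as CEBPB and CEBPG did. The CEBPA start site lay in a gap in both lists, with the nearest peak edge 362 bp away in knockout and 193 bp in parental cells. For CEBPD these distances were 714 and 185 bp. At CEBPE the nearest knockout edge lay 77 bp from the start site that the parental peak covered. For genes with no spanned start site the median distance was 256 bp in knockout and 111 bp in parental cells.

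Summed promoter width was smaller in knockout cells at all 5 genes, as at 95.9% of the 11190 genes marked in both lists. Width says how much sequence was called, not how strong the mark was. In knockout cells the order from wide to narrow was CEBPA (2157 bp), CEBPE (1854 bp), CEBPG (1591 bp), CEBPD (1524 bp) and CEBPB (770 bp). In parental cells it was CEBPE (4655 bp), CEBPA (4052 bp), CEBPB (3605 bp), CEBPG (2728 bp) and CEBPD (2642 bp). CEBPB thus stood last in knockout cells but in the middle in parental cells, while CEBPA and CEBPE were the widest in both genotypes.

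**Figure D2:**
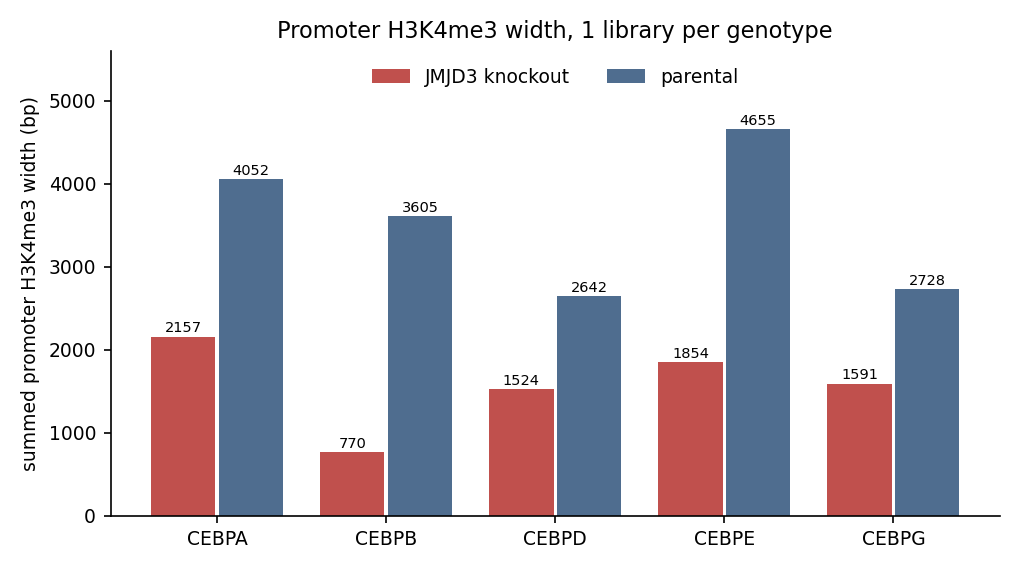
Summed width of promoter H3K4me3 peaks in bp for each C/EBP gene, in knockout (red) and parental cells (blue), 1 library each and no error bars. The knockout bars run between 770 and 2157 bp and the parental bars between 2642 and 4655 bp, with the widest difference in proportion at CEBPB.

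The log2 ratio of knockout over parental width was -0.91 for CEBPA, -1.33 for CEBPE, -2.23 for CEBPB, -0.79 for CEBPD and -0.78 for CEBPG. The family median of -0.91 lay near that of all genes marked in both lists, -1.01 (quartiles -1.49 and -0.61). CEBPB and CEBPE, 2 of 5, were narrower by at least 2-fold, a call that 50.6% of all genes met. CEBPB was the member farthest from the bulk, with 7.81% of genes at a lower ratio, while the shares for CEBPE, CEBPA, CEBPD and CEBPG were 32.0%, 56.1%, 63.4% and 64.6%. With a window of 1 kb in place of 5 kb, CEBPE stood close to CEBPB, at -2.89 against -2.96. That window left out the 3068 bp parental peak of CEBPE, whose centre lay 2722 bp from the start site. With windows of 10 and 20 kb CEBPE stood at -1.38.

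**Figure D3:**
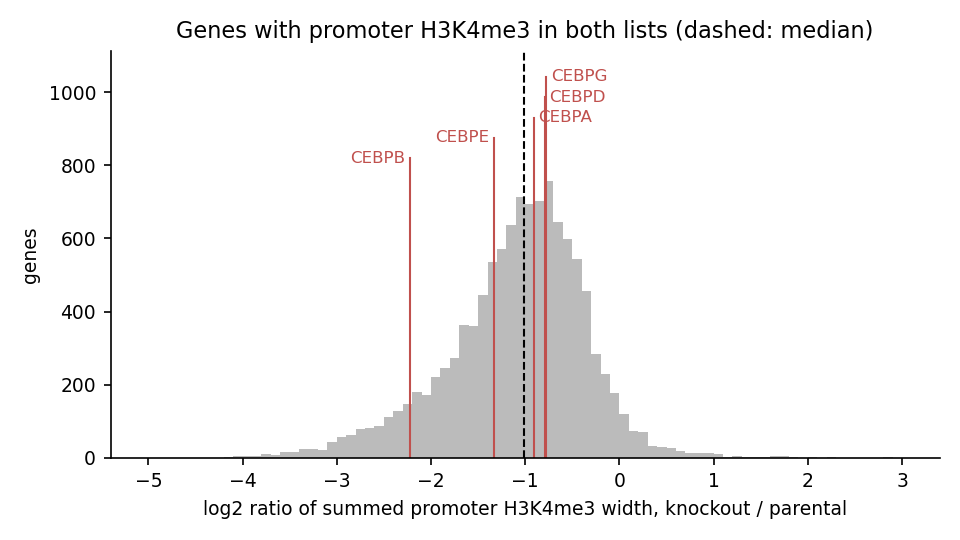
Histogram of the log2 ratio of summed promoter H3K4me3 width, knockout over parental, for genes marked in both lists (grey, number of genes; values beyond the axis are drawn in the end bins). Red lines place the 5 C/EBP genes; CEBPB at -2.23 sits in the lower tail and the others lie near the dashed median of -1.01.

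At CEBPB, CEBPE and CEBPA the outer borders differed less than the listed width. From the first to the last listed promoter base, CEBPB extended over 2920 bp in knockout and 3731 bp in parental cells, CEBPE over 4236 and 5513 bp, and CEBPA over 4115 and 4792 bp. On this measure the log2 ratios were -0.35, -0.38 and -0.22, and no member was narrower by at least 2-fold, whereas 31.2% of all genes were. CEBPD (1741 bp in knockout, 2841 bp in parental cells, -0.71) and CEBPG (2487 and 3645 bp, -0.55) had the lowest extent ratios of the family, although they had the highest width ratios. The family median was -0.38 and that of all genes -0.51.

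At these 3 genes the bases without a peak inside the extent numbered 2150 bp in knockout and 126 bp in parental cells (CEBPB), 2382 and 858 bp (CEBPE) and 1958 and 740 bp (CEBPA). At CEBPD they numbered 217 and 199 bp and at CEBPG 896 and 917 bp. The narrower width of CEBPD lay mostly at the ends. That of CEBPG lay both at the ends and inside. Its largest knockout gap, 827 bp from 33864361 to 33865187, took in the first part of the 1594 bp parental peak that starts at 33864757. At CEBPB 26.4% of the extent was listed as H3K4me3 in knockout and 96.6% in parental cells. At CEBPE the shares were 43.8% and 84.4%, and at CEBPA 52.4% and 84.6%. At CEBPD they were 87.5% and 93.0%, and at CEBPG 64.0% and 74.8%. The knockout minus parental difference was -70.3 percentage points at CEBPB, -10.9 at CEBPG and -5.46 at CEBPD, against a median of -11.8 over all genes. Only 7.14% of all genes had a less filled region than CEBPB in knockout cells, while 87.8% had a less filled one in parental cells.

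**Figure D4:**
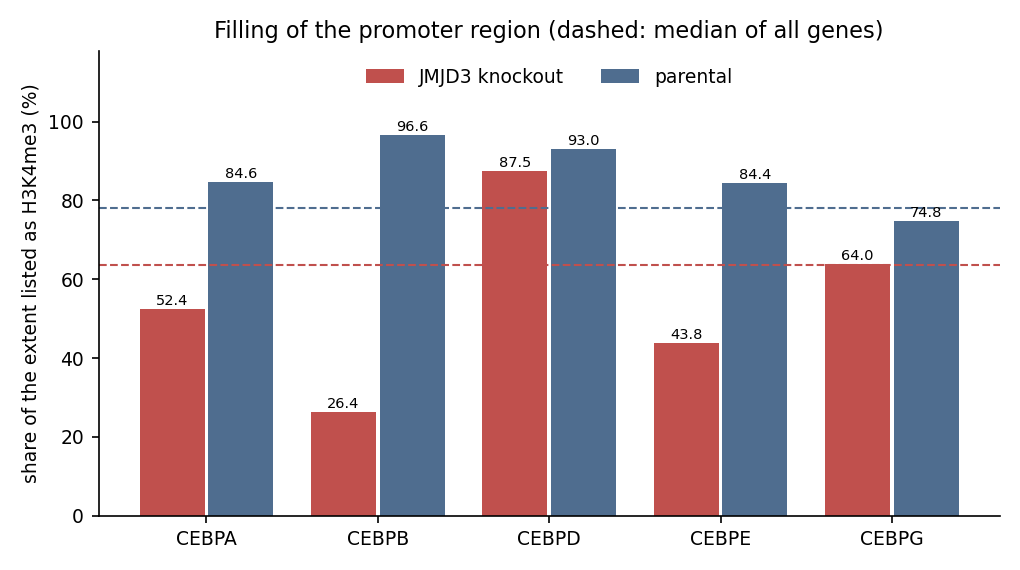
Share of the promoter extent, first to last listed base, that was listed as H3K4me3, in percent, for each gene in knockout (red) and parental cells (blue). Dashed lines are the medians of genes marked in both lists, 63.6% for knockout and 78.1% for parental; CEBPB has the lowest knockout and the highest parental bar.

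The knockout peaks lay almost entirely within parental ones. Of the 7896 bp of knockout promoter H3K4me3 at the 5 genes, 98.4% was inside parental promoter peaks. The median per gene over the genes marked in both lists was 89.5%. For the base pairs of the whole knockout list, which also holds peaks outside promoters, the share inside parental peaks was 82.2%. Between 82.6% and 98.1% of marked genes had a narrower parental promoter width than each member. All knockout bases of CEBPA, CEBPB and CEBPD were inside; that was so for 26.1% of the genes marked in both lists. The exceptions were 113 bp at CEBPE and 15 bp at CEBPG. Conversely 43.9% of the 17682 parental bp was covered by knockout peaks, against 38.9% for the whole parental list.

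CEBPA (hg19, start site at 33793471 on chromosome 19, minus strand, 4 transcripts) had 5 peaks in knockout and 4 in parental cells. Its knockout peaks were 617, 535, 192, 360 and 453 bp wide and its parental peaks 1241, 1692, 165 and 954 bp. The parental peak from 33791316 to 33793007, over the gene, thus faced 3 knockout peaks. The small parental peak from 33793113 to 33793277, next to the start site, had no knockout counterpart, and the largest knockout gap, of 1213 bp, ran from 33792620 to 33793832 across the start site. More peaks in knockout than in parental cells were listed for CEBPA and CEBPB, and for 24.6% of genes marked in both lists. Every listed CEBPA peak was also listed for CEBPA-AS1, whose start site lies at 33793763, so the values of these genes are the same and cannot be told apart.

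CEBPE (NM_001805, start site at 23588821 on chromosome 14, minus strand) had the widest single peak of the family, 3068 bp from 23584565 to 23587632 in parental cells, downstream of the start site. The 5 knockout peaks of 230, 170, 194, 416 and 667 bp overlapped this stretch, and no knockout peak lay between 23586744 and 23588566, a gap of 1823 bp. At the start site a parental peak of 269 bp faced a knockout peak of 177 bp. The parental peak upstream, 330 bp from 23589068 to 23589397, was not matched in knockout cells. One more parental peak, of 169 bp, had its centre 5127 bp from the start site and was left out of the promoter width, whereas the one of 276 bp with its centre 4798 bp away was counted. The peaks at the far end were also listed for ACIN1 and C14orf119, whose own promoters had log2 width ratios of -1.43 and -1.69.

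CEBPB (3 transcripts, start site at 48807120 on chromosome 20, plus strand) was covered in parental cells by 2 peaks of 1600 and 2005 bp, from 48807064 to 48808663 and from 48808790 to 48810794. Knockout cells had 3 peaks of 205, 289 and 276 bp. The first, from 48807088 to 48807292, still spanned the start site, and the other 2 lay between 48809391 and 48810007. The 2098 bp between them, from 48807293 to 48809390, held no knockout peak, the largest gap of the family. The same peaks were listed for CEBPB-AS1, an antisense transcript with its start site at 48808607, within this gap. The first parental peak had its centre 744 bp from the start site of CEBPB and 1 bp nearer to that of CEBPB-AS1, and the second lay nearer to CEBPB-AS1 too. When a peak counted for its nearest gene only, CEBPB therefore had no parental H3K4me3 and no ratio.

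CEBPD (NM_005195, start site at 48650727 on chromosome 8, minus strand) had 3 peaks in each genotype. The knockout peaks of 916, 190 and 418 bp all lay within the parental peak of 2112 bp from 48648141 to 48650252. The flanking parental peaks, 362 bp downstream and 168 bp towards the start site, had no counterpart, so the knockout region was shorter at both ends. Within 1 kb of the start site the sign of its ratio turned, to 1.32, because the centre of the wide parental peak lay 1530 bp away and only its 168 bp neighbour was counted against 418 bp in knockout cells.

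CEBPG lies 71.1 kb from CEBPA on chromosome 19, on the plus strand, and has start sites at 33864575 (NM_001806) and 33865430 (NM_001252296). Its knockout peaks were 547, 643 and 401 bp wide and its parental peaks 299, 604, 1594 and 231 bp. The downstream start site was spanned in both genotypes and the upstream one in neither. The upstream knockout peak (547 bp) and its parental counterpart (604 bp, from 33863829 to 33864432) were the pair closest in width in the family. The outermost parental peaks, of 299 and 231 bp, had no knockout counterpart.

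Neighbouring genes moved to different degrees with the members. Within 1 Mb of CEBPE the H3K4me3 lists held 52 knockout and 83 parental peaks, and the median log2 ratio of the 31 other genes there was -1.26, close to that of CEBPE; 15 of them lay below it. Around CEBPA the peaks numbered 39 and 50 and the 16 neighbours had a median of -0.95, with 8 below CEBPA. Around CEBPD there were 14 and 15 peaks, and 4 neighbours with a median of -0.55, with 1 below CEBPD. Around CEBPG there were 44 and 54 peaks and 17 neighbours with a median of -0.92, with 11 below CEBPG. CEBPA and CEBPG lie 71.1 kb apart, so their neighbourhoods largely overlap and each counts as a neighbour of the other. CEBPA-AS1, with the peaks of CEBPA, is among the neighbours of both. Around CEBPB there were 46 and 52 peaks and 20 neighbours with a median of -1.02. None of these 20, which include CEBPB-AS1 with its shared peaks, had a lower ratio than CEBPB. The part of regional copy number in these values was not tested.

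Genes with the most similar pattern were taken by the smallest Euclidean distance over log2 of promoter width plus 1 and log2 of the number of peaks within 20 kb plus 1, in the 4 libraries. For CEBPB these were PPM1L (683 bp in knockout, 3166 bp in parental cells; distance 0.25) and GRK4 (935 and 3248 bp; 0.32). For CEBPE, VEGFA is given (1830 and 4441 bp; 0.18). RPL32 and SNORA7A, which had the same promoter peaks (2378 and 4086 bp; 0.14), were nearest to CEBPA. MCM8 and TRMT6, with the same values (1465 and 2540 bp; 0.08), were nearest to CEBPD, and BUD31 and PDAP1 (1560 and 2803 bp; 0.05) to CEBPG. The distances for CEBPB were the largest of the 5.

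Most bZIP partners of C/EBP proteins had promoter H3K4me3. Of 14 partners, 13 had it in both genotypes, against 61.9% of all genes, and FOSL1, a FOS family member, in parental cells only (732 bp), a state found in 9.45% of all genes. The 13 had a median log2 width ratio of -0.82, and 5 were narrower by at least 2-fold, against 50.6% of all genes. ATF5, a stress-responsive factor, had the lowest ratio, with 645 bp in knockout and 3239 bp in parental cells (-2.33). ATF3 had the highest, with 1370 and 1760 bp (-0.36). ATF4, the partner of C/EBPγ in the amino acid stress response, had 2270 bp in knockout and 3117 bp in parental cells (-0.46). DDIT3, the C/EBP inhibitor CHOP, had 2609 and 4619 bp (-0.82).

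Of 21 factors that act on C/EBP proteins or with them, 19 were marked in both genotypes (61.9% of all genes), SMARCA4, a chromatin remodelling ATPase, in parental cells only (1847 bp), and IRF8, a monocyte factor, in neither. The median log2 ratio was -1.07, and 11 of 19 were narrower by at least 2-fold, near the 50.6% of all genes. Within the pathway that degrades C/EBPα the extremes stood side by side. COP1, the ubiquitin ligase listed under the older symbol RFWD2, had 471 bp in knockout and 3546 bp in parental cells (-2.91), and TRIB1, the adaptor that brings it to C/EBPα, 7179 and 7842 bp (-0.13). TRIB2, a related adaptor, had 703 bp in knockout and 1173 bp in parental cells (-0.74).

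Of 20 known myeloid target genes of C/EBP factors, 6 had promoter H3K4me3 in both genotypes (61.9% of all genes), CTSG (312 bp), CAMP (283 bp) and ITGAM (146 bp) in parental cells only, S100A8 (431 bp) in knockout cells only, and 10 in neither. Among all genes, 61.9% were marked in both genotypes, 9.45% in parental cells only, 0.984% in knockout cells only and the rest in neither. The 146 bp of ITGAM equals the smallest peak width in the parental H3K4me3 list. CXCL8, a neutrophil chemokine, had the lowest ratio, with 494 bp in knockout and 2780 bp in parental cells (-2.49), and PRTN3, a primary granule protease, the highest, with 331 and 389 bp (-0.23). The median of the 6 was -1.37. No partner or regulator had an H3K27me3 peak within 20 kb, as for 95.5% of genes with promoter H3K4me3 in both genotypes. In knockout cells 4 of 20 targets had one (MMP8, IL6, S100A8 and S100A9), against 13.0% of all genes. In parental cells 2 of 20 had one (S100A8 and S100A9), against 12.9% of all genes. None of these peaks lay at the promoter.

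**Figure D5:**
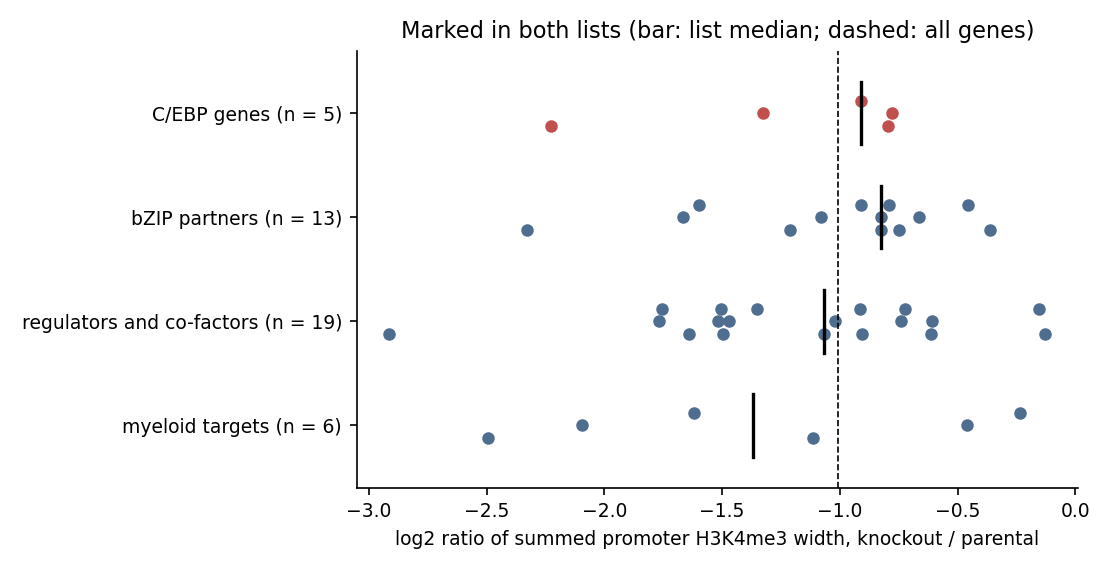
Log2 ratio of summed promoter H3K4me3 width, knockout over parental, for the genes of each list that were marked in both genotypes (points; vertical position within a row has no meaning). Short bars are list medians (-0.91, -0.82, -1.07 and -1.37 from top to bottom) and the dashed line is the median of all genes; every point lies below 0.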

How the data were processed

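Peak lists of the 4 immunoprecipitated H3K4me3 and H3K27me3 samples were used; 2 input libraries were not analysed here. The build hg19 and the tools MACS2 2.1.1, BWA 0.7.10 and SAMtools come from the submitters' processing notes; their settings are not given there. Per the file headers, each line pairs a peak with a RefSeq transcript and carries the peak's position, a score and a distance, which was tested to be the peak centre minus the start site, within 20 kb. The score deposited by the authors depends on that distance alone (largest error 5e-13) and was not used. Starts were read as counted from 0 and are printed counted from 1.

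Distinct peaks were taken by position, widths summed per gene and genotypes compared as log2 ratios with Python 3.11.15 and pandas 2.3.3; overlaps were checked against bedtools 2.31.1 and widths on simulated lists. Directions of transcription came from the RefSeq promoter table, and for CEBPD from textbook knowledge. The alternatives were windows of 1, 10 and 20 kb, spanning peaks, nearest genes, peaks of at least 300 bp, lists of equal length, single start sites and stricter overlap; the extent measure was added after seeing the data. Named are all 5 members, the genes sharing their peaks, the 2 most similar genes each (1 of them, and the list of other lineage markers, are not reported here; ALB was named after its values were seen), and the extremes and differing states of 3 pathway lists; ATF4, DDIT3, TRIB2 and the H3K27me3-listed targets were named after their values were seen. Members and lists were chosen with earlier results of these data known.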

Additional observations from a re-analysis of the deposited data

How the results depend on the processing

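All 5 members kept promoter H3K4me3 in both genotypes with windows of 1, 10 and 20 kb, lists of equal length and single start sites; CEBPB was unmarked in parental cells when peaks counted for their nearest gene, and in knockout cells with peaks of at least 300 bp. When only peaks that span a start site counted, 2 members were marked in knockout and 3 in parental cells, and the median log2 ratio of the 2 marked in both was -2.14. Members narrower by at least 2-fold numbered 3 within 1 kb (49.2% of all genes), 1 for nearest genes (48.4%), 1 for peaks of at least 300 bp (57.1%) and 0 for the extent (31.2%). Within 1 kb the family median was -1.30, below the -0.98 of all genes instead of above it, and CEBPB and CEBPE stood at -2.96 and -2.89. CEBPD turned to 1.32 within 1 kb, by the position of peak centres; no other member changed sign. With 50% of the peak covered, 25% of parental peaks were overlapped, and with 50% reciprocal overlap 5.0% of knockout and 5.0% of parental peaks. With no spread between replicates, a value was taken as unchanged within 1.5-fold: of 82 values, 66 were unchanged, 15 moved and 1 changed sign. No paired analysis was possible because each group holds 1 library. Depth is unknown, so a narrower peak in the knockout list cannot be told apart from a shallower or less enriched library.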
